A study of Homo sapiens with 18 samples.

Results

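A family of 9 chaperone genes, relatives of the heat shock protein HSP70 that are mostly made without stress, was followed in HEK293 cells, a line derived from human embryonic kidney. They are HSPA8, HSPA2, HSPA9, HSPA12A, HSPA13 and HSPA14 of the HSP70 family and HSPH1, HSPA4 and HSPA4L of the HSP110 family. The members are the rows of the deposited expression table whose gene symbols all belong to these 9 genes. There was 1 such row, or transcript cluster, for each gene, so 9 of the 21214 clusters with a symbol and of 33297 rows in all. The genes form a family by name, but it was chosen by measured values of these arrays, above all the differences between RHOX-transfected and control cells at 48 h. The differences from control and between the plasmids at 48 h are therefore given as a description, and calls made on them support nothing. The changes with time in control cells had also been seen, so their p-values are readings of the fit and no independent support. The changes with time in RHOX-transfected cells use the same 48 h arrays, so this holds for them too.

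Cells received an expression plasmid for RHOXF1, one for RHOXF2, or an empty control vector, with Lipofectamine 2000, and RNA was taken 24 h or 48 h later. This gave 6 groups of 3 arrays, described as biological triplicates, and 18 arrays in all: control, RHOXF1 and RHOXF2 at each time. RHOXF1 and RHOXF2 are homeobox genes of the reproductive cluster on the X chromosome. All groups share the cell line and the lipid transfection, and no untransfected cells were analysed here. The plasmids came from OriGene, whose GFP vector pCMV6-AC-GFP is named beside the RHOX clones. The share of cells that took up plasmid is not given, and each array is a bulk sample, so fewer cells with a transcript and less of it per cell cannot be told apart.

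HSP70 proteins bind exposed hydrophobic stretches of client proteins and release them in a cycle driven by ATP. J-domain proteins start the cycle by stimulating ATP hydrolysis, and nucleotide exchange factors, among them the HSP110 proteins, end it by exchanging ADP for ATP. HSPA8, or HSC70, is the abundant cytosolic form, which also strips clathrin from vesicles and carries clients to lysosomes in chaperone-mediated autophagy. HSPA2 is a close relative best known from the testis, where spermatocytes need it in meiosis. HSPA9, or mortalin, works in the mitochondrial matrix in protein import and iron-sulfur cluster assembly. HSPA14 joins the J-domain protein DNAJC2 at the ribosome, HSPA13 is a divergent form linked to microsomes, and HSPA12A is a distant member of the family. HSPH1, HSPA4 and HSPA4L are HSP110 proteins, and HSPH1 is also induced by heat in many cells. Heat shock factor HSF1 activates stress genes through heat shock elements, which are repeats of a GAA unit in alternating direction.

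The stretches before the start sites are shown for HSPA8, HSPA2 and HSPH1, 3 of the genes whose differences from control were read at 48 h. They differ in whether they hold a heat shock element. The sequences are the 250 bases before a RefSeq start site, on build GRCh38.p14, read 5′ to 3′ on the strand of the gene. For HSPH1 this site is the outer end of the gene in the RefSeq annotation, and for HSPA8 and HSPA2 it is another site. Positions are counted from the site of each window. Capitals mark heat shock elements. The 2-unit forms searched were GAANNTTC and TTCNNGAA, each of which reads the same on both strands. The 3-unit element is an overlap of both forms that share their middle unit, in either order, so each 3-unit match also holds a match to each 2-unit form.
HSPA8, chr11:123062137-123062386, minus strand: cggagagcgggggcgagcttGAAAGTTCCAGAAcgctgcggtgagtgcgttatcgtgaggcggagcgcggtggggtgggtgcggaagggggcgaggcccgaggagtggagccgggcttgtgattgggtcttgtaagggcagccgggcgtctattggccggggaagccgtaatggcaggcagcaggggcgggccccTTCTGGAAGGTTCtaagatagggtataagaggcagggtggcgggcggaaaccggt
HSPA2, chr14:64540491-64540740, plus strand: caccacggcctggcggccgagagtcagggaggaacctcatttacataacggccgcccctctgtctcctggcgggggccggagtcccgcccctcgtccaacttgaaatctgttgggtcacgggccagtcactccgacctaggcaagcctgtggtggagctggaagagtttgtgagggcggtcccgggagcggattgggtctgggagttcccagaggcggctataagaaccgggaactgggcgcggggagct
HSPH1, chr13:31162389-31162638, minus strand: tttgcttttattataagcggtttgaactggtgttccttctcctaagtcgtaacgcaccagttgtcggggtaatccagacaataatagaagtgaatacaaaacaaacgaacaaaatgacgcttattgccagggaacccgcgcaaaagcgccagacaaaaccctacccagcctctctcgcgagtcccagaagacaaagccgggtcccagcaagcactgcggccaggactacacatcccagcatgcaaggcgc
RefSeq windows were found for 8 of the 9 genes, 11 windows in all, as HSPA4L had 3 and HSPA12A 2; HSPA14 was not matched. HSPA8 held 2 matches to the 3-unit element, from base -230 to -218 and from -55 to -43 before the start, and no other gene of the 8 held one. Of all 35116 windows of this length, 0.441% held the 3-unit element. The only 2-unit match outside HSPA8 lay in the second window of HSPA4L, from -170 to -163. The form GAANNTTC was present in 5.78% of all windows and TTCNNGAA in 6.62%. A CCAAT box, searched as CCAAT or ATTGG and found in 32.0% of all windows, lay in the windows of HSPA8 (2 matches), HSPA2 and HSPA4L. A TATA box, searched as TATAAA or TTTATA and found in 10.7% of all windows, lay only in the third window of HSPA4L among these 11. No match says only that these letters are not in the window searched, and a match is not evidence of binding.

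**Figure D1:**
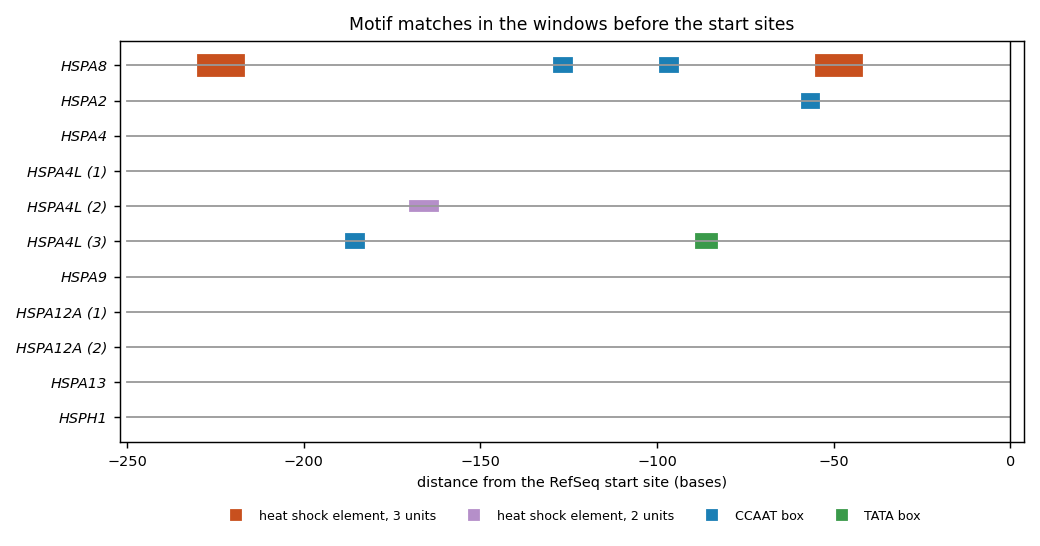
Motif matches in the 11 windows of 250 bases before RefSeq start sites of 8 of the genes (rows), by distance from the start site in bases (horizontal axis); numbers in brackets tell apart windows of 1 gene. HSPA8 holds both 3-unit heat shock elements, and the only other heat shock element is the 2-unit match of HSPA4L.

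The levels are log2 RMA values, in which a difference of 1 is a doubling. Array medians over all rows ran from 6.68 to 6.82, and replicate arrays correlated at 0.9925 to 0.9975 across clusters, which are not independent replicates. The cluster of each transfected gene lay at 12.1 or higher on every array labelled with it. On the RHOXF2 arrays of 48 h the RHOXF1 cluster read 7.03 to 9.12, against 5.67 to 6.51 on the control arrays of that time. At 24 h it read 6.94 to 7.89 on the RHOXF2 arrays, against 6.13 to 6.56 on the control arrays. Of 6 genes known from HEK293 cells, such as the neurofilament gene NEFL and LIN28B, all averaged above the median of the named clusters (7.47), and of 8 markers of other cell types 7 averaged below it. RHOXF2 replicate 3 at 48 h stood apart from the other 48 h arrays on the first principal component (-4.48 against 9.36 to 26.3). The control arrays of 48 h were spread as well, at 11.6, 23.7 and 26.3, with replicates 2 and 3 at the other end. The RHOXF1 arrays of 48 h lay at 15.7, 9.36 and 14.5. The 24 h arrays carry the numbers 1 to 9 and the 48 h arrays 16 to 24, so time and array number cannot be told apart. No filter on low values was applied, so all 9 genes were tested. HSPA2 was the dimmest relative to its array, between percentiles 35.4 and 49.4 of the named clusters, and HSPA8 the brightest, between 99.6 and 99.9, where array signal can be compressed.

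In control cells, 5 of the 9 genes fell between 24 h and 48 h: HSPH1, HSPA4, HSPA8, HSPA14 and HSPA2. Of all named clusters 7.89% were called lower in this comparison. The decrease was largest for HSPH1, at 2.33-fold, and the other 4 were 1.28-fold to 1.44-fold lower. In RHOXF2-transfected cells, HSPH1 at 48 h differed by -0.10 from its mean in control cells at 24 h. None of the 9 genes changed past the threshold between the times in these cells, where 1.24% of named clusters did. In RHOXF1-transfected cells HSPH1 and HSPA4 fell, where 1.35% of named clusters were called lower. Both calls were lost in some fits that left out a single array.

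**Figure D2:**
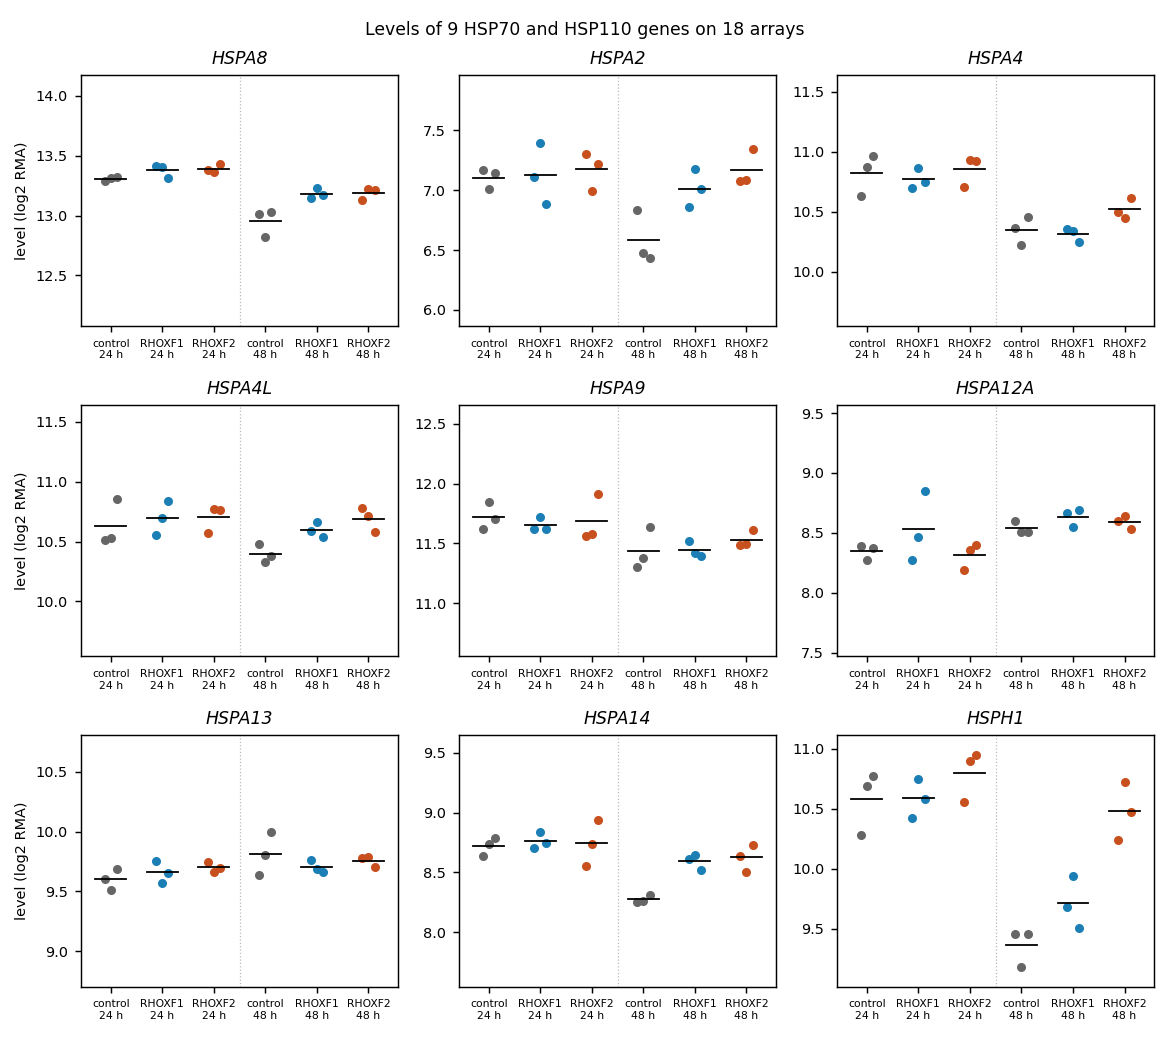
Levels (vertical axis, log2 RMA) of the 9 genes on the 18 arrays, with 1 panel per gene on axes of equal span, 1 point per array and a line at the mean of each group of 3. In the HSPH1 panel the control arrays at 48 h lie between 9.18 and 9.45 and the RHOXF2 arrays at 48 h between 10.24 and 10.73, while at 24 h all 9 arrays lie between 10.28 and 10.95.

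HSPH1, the HSP110 gene that responds to heat, varied most among the 9. In control cells its level was 10.28, 10.69 and 10.78 at 24 h and 9.45, 9.18 and 9.45 at 48 h. In RHOXF1-transfected cells it was 10.42, 10.75 and 10.59 at 24 h and 9.68, 9.94 and 9.50 at 48 h. In RHOXF2-transfected cells it was 10.55, 10.90 and 10.95 at 24 h and 10.24, 10.73 and 10.47 at 48 h. The 3 groups of 24 h overlapped with each other and with RHOXF2 at 48 h, whereas RHOXF1 at 48 h lay wholly below these and control at 48 h wholly below RHOXF1. From the highest mean to the lowest the order was RHOXF2 at 24 h (10.80 ± 0.22 SD, n = 3), RHOXF1 at 24 h (10.59 ± 0.16), control at 24 h (10.58 ± 0.26), RHOXF2 at 48 h (10.48 ± 0.24), RHOXF1 at 48 h (9.71 ± 0.22) and control at 48 h (9.36 ± 0.16). Replicate 1 was the lowest array of its group at 24 h in all 3 kinds of cell.

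HSPA4 and HSPA4L, the other HSP110 genes, varied less. HSPA4 read 10.63, 10.87 and 10.97 in control cells at 24 h and 10.36, 10.22 and 10.46 at 48 h. Its RHOXF1 arrays read 10.70, 10.86 and 10.75 at 24 h and 10.36, 10.34 and 10.25 at 48 h, and its RHOXF2 arrays 10.71, 10.93 and 10.93 at 24 h and 10.50, 10.45 and 10.62 at 48 h. Every 24 h array of HSPA4 lay above every 48 h array, whatever the plasmid. HSPA4L read 10.51, 10.53 and 10.85 in control cells at 24 h and 10.48, 10.33 and 10.38 at 48 h. At 48 h its RHOXF1 arrays read 10.59, 10.67 and 10.53 and its RHOXF2 arrays 10.78, 10.71 and 10.58, all above the control arrays of that time. In the order of its group means only control at 48 h (10.40 ± 0.08 SD, n = 3) was separated from its neighbour, RHOXF1 at 48 h (10.60 ± 0.07).

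HSPA8, the main cytosolic HSP70, was the steadiest in absolute spread within groups, with group SDs of 0.01 to 0.11. It lies at a level where array signal can be compressed, so its small spread may not be a trait of the gene. In control cells it read 13.29, 13.31 and 13.32 at 24 h and 13.01, 12.82 and 13.03 at 48 h. In RHOXF1-transfected cells it read 13.42, 13.41 and 13.31 at 24 h and 13.14, 13.23 and 13.17 at 48 h, and in RHOXF2-transfected cells 13.38, 13.37 and 13.43 and then 13.13, 13.22 and 13.21. Its levels fell into 3 tiers without overlap, with all 24 h arrays on top, the RHOX arrays of 48 h below them and the control arrays of 48 h lowest. Within the upper and the middle tier the groups overlapped, except that at 24 h all RHOXF2 arrays lay above all control arrays.

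HSPA2, the HSP70 gene known from the testis, read 7.17, 7.01 and 7.14 in control cells at 24 h and 6.83, 6.48 and 6.44 at 48 h. Its RHOXF1 arrays read 7.11, 7.39 and 6.89 at 24 h and 6.86, 7.17 and 7.01 at 48 h. Its RHOXF2 arrays read 7.30, 6.99 and 7.22 at 24 h and 7.08, 7.08 and 7.35 at 48 h. The 5 groups other than control at 48 h overlapped along the order of their means, which ran from 7.01 to 7.17, and control at 48 h lay below them all at 6.58 ± 0.22 (SD, n = 3).

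HSPA14, the ribosome-associated member, showed the same order of groups at 48 h. In control cells it read 8.63, 8.74 and 8.79 at 24 h and 8.26, 8.26 and 8.32 at 48 h. At 48 h it read 8.61, 8.65 and 8.52 with RHOXF1 and 8.64, 8.51 and 8.73 with RHOXF2, above the control arrays, and at 24 h the RHOX arrays ran from 8.55 to 8.94. HSPA9, the mitochondrial member, read 11.62, 11.85 and 11.71 in control cells at 24 h and 11.30, 11.38 and 11.64 at 48 h, and at 48 h the 3 kinds of cell overlapped, with means of 11.44 (control), 11.44 (RHOXF1) and 11.53 (RHOXF2). HSPA12A and HSPA13 had their higher means at 48 h in all 3 kinds of cell. HSPA12A ranged from 8.19 to 8.85 over the 18 arrays, with both of these extremes at 24 h, and HSPA13 from 9.51 to 10.00, and no neighbouring groups in the order of their means were apart.

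For the change between the times, the question was whether these chaperones keep their level as the cultures age after transfection. In control cells HSPH1 fell by 1.22 (SE 0.15, limma adjusted p = 0.000344), HSPA4 by 0.48 (SE 0.10, adjusted p = 0.00323), HSPA8 by 0.35 (SE 0.07, adjusted p = 0.00344), HSPA14 by 0.44 (SE 0.09, adjusted p = 0.00379) and HSPA2 by 0.52 (SE 0.13, adjusted p = 0.0121). These were 5 of 9 genes called lower, where 7.89% of all named clusters were, and 0 of 9 were called higher, where 9.89% were. HSPA9 (-0.28, adjusted p = 0.0630) and HSPA4L (-0.23, adjusted p = 0.110) did not pass, nor did HSPA13 (0.21, adjusted p = 0.0977) and HSPA12A (0.19, adjusted p = 0.226). The median of the 9 differences was -0.35, beside -0.03 over all named clusters. HSPA2 no longer passed when replicate 2 (adjusted p = 0.0505) or 3 (0.0594) of the 48 h control arrays was left out, and HSPA9 was called without control replicate 3 of 48 h (-0.39, adjusted p = 0.0284), as it was with array weights (0.0418), another variance model (0.0458) and the filter on dim clusters (0.0473). HSPA13 was called without control replicate 1 of 48 h (0.30, adjusted p = 0.0255), and read 0.12 without replicate 3. HSPA4L came to -0.12 without control replicate 3 of 24 h (adjusted p = 0.402). HSPA8 no longer passed with only the control arrays fitted (adjusted p = 0.0554). In the same comparison 1 of 8 markers of other cell types was called, the monocyte gene CD14, which fell by 0.46. Its mean level of 5.72 lay at the lower quartile of named clusters (5.71). The log2 of the summed signal of the 8 markers ran from 8.80 to 9.06 at 24 h and from 8.80 to 8.88 at 48 h. Of 6 HEK293 markers 3 rose, the intermediate filament genes NEFL (0.24), VIM (0.46) and KRT8 (0.58), and the median of that list was 0.28. The part of these markers in the result was not tested.

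The RHOX arrays of 48 h were in view when the family was chosen, so nothing is read from the counts and p-values that follow. In RHOXF1-transfected cells 2 of 9 genes were called lower, where 1.35% of named clusters were: HSPH1 fell by 0.88 (SE 0.15, limma adjusted p = 0.00780) and HSPA4 by 0.45 (SE 0.10, adjusted p = 0.0157). HSPA8 read -0.20 (adjusted p = 0.123) and was called with array weights (adjusted p = 0.0282), which made the count 3. Single arrays changed these calls. Neither gene was called without RHOXF1 replicate 3 of 24 h (adjusted p = 0.0503 for HSPH1 and 0.0648 for HSPA4) or replicate 3 of 48 h (0.0505 and 0.0863), and HSPA4 was not called without replicate 2 of 24 h (0.0778) or replicate 1 of 48 h (0.0551). In RHOXF2-transfected cells limma called 0 of 9, where 1.24% of named clusters were called in either direction, and 4 of 9 had an unadjusted p under 0.05, where 16.7% did. HSPA4 read -0.33 ± 0.10 SE (adjusted p = 0.0869), HSPH1 -0.32 ± 0.15 (adjusted p = 0.298; 95% interval -0.64 to -0.00051), HSPA8 -0.20 ± 0.07 (adjusted p = 0.158) and HSPA12A 0.28 ± 0.11 (adjusted p = 0.198). HSPA2 was nearly the same at both times (difference -0.0042, 95% interval -0.28 to 0.27). Without RHOXF2 replicate 3 of 48 h, the array that stood apart, HSPH1 read -0.32 and HSPA4 -0.38 (adjusted p = 0.0562). Without RHOXF2 replicate 1 of 48 h HSPH1 read -0.20 (adjusted p = 0.624). HSPA4 was called with array weights (adjusted p = 0.0406).

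**Figure D3:**
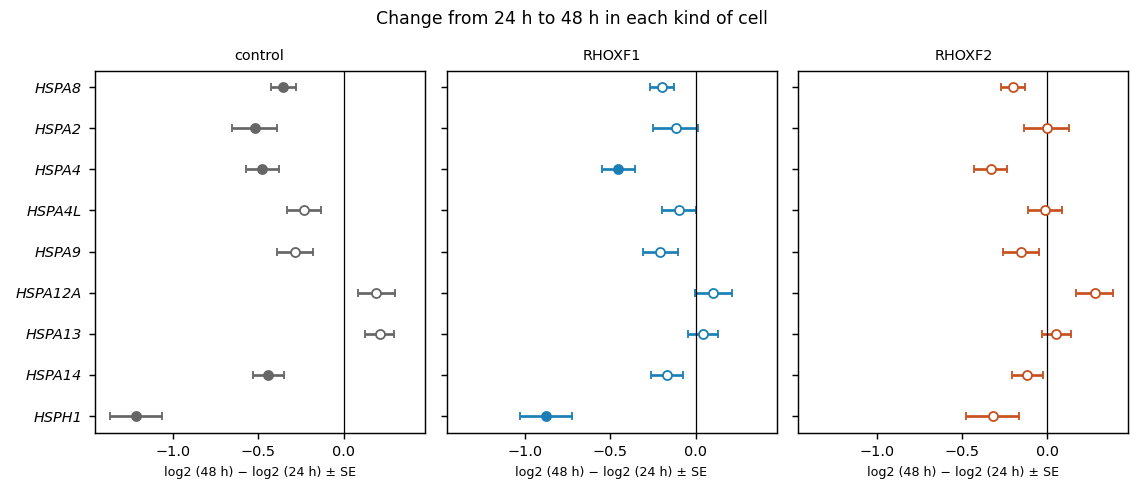
Change from 24 h to 48 h (horizontal axis, log2 difference with its standard error) of each gene in control, RHOXF1 and RHOXF2 cells; filled points passed the adjusted threshold of 0.05. HSPH1 lies at -1.22 in control, -0.88 in RHOXF1 and -0.32 in RHOXF2 cells, and HSPA12A and HSPA13 lie above 0 in all 3 panels.

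Of the comparisons with control arrays of the same time, RHOXF2 at 48 h had the largest median difference over the family. HSPH1 was 2.17-fold higher there (difference 1.12 ± 0.15 SE, n = 3 against 3). HSPA2 read 0.59 ± 0.13 higher, HSPA14 0.35 ± 0.09, HSPA4L 0.29 ± 0.10 and HSPA8 0.23 ± 0.07, and for these 4 and HSPH1 all 3 RHOXF2 arrays lay above all 3 control arrays. HSPA4 (0.18 ± 0.10), HSPA9 (0.09 ± 0.10), HSPA12A (0.05 ± 0.11) and HSPA13 (-0.06 ± 0.09) overlapped with control. Thus 5 of 9 genes had non-overlapping higher arrays, where 6.59% of named clusters did, and 1 of 9, HSPH1, was called higher, where 0.0848% were. As these values were in view when the family was chosen, nothing is read from either count. The median of the 9 differences was 0.23, beside 0.01 over all named clusters. Without RHOXF2 replicate 3, the array that stood apart, HSPH1 read 1.12, HSPA2 0.50, HSPA4L 0.35, HSPA14 0.29 and HSPA8 0.22. HSPH1 was not called with only the RHOXF2 and control arrays of 48 h fitted (limma adjusted p = 0.0533). Its difference ran from 0.99 to 1.24 with an array left out. HSPA2 was also called without control replicate 1 (0.71).

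RHOXF1-transfected cells at 48 h were compared with the same control arrays, so the differences of both comparisons share them. HSPA2 read 0.43 ± 0.13 SE above control, HSPH1 0.35 ± 0.15, HSPA14 0.31 ± 0.09, HSPA8 0.23 ± 0.07 and HSPA4L 0.20 ± 0.10. In each of these 5 genes the 3 RHOXF1 arrays lay above the 3 control arrays, where 7.17% of named clusters showed this. HSPA12A (0.10 ± 0.11), HSPA9 (0.0052 ± 0.10), HSPA4 (-0.03 ± 0.10) and HSPA13 (-0.11 ± 0.09) overlapped with control. limma called 0 of 9, where 0.00943% of named clusters were called in either direction, and 4 of 9 had an unadjusted p under 0.05, where 7.22% did. These values too were in view when the family was chosen, and nothing is read from the counts.

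**Figure D4:**
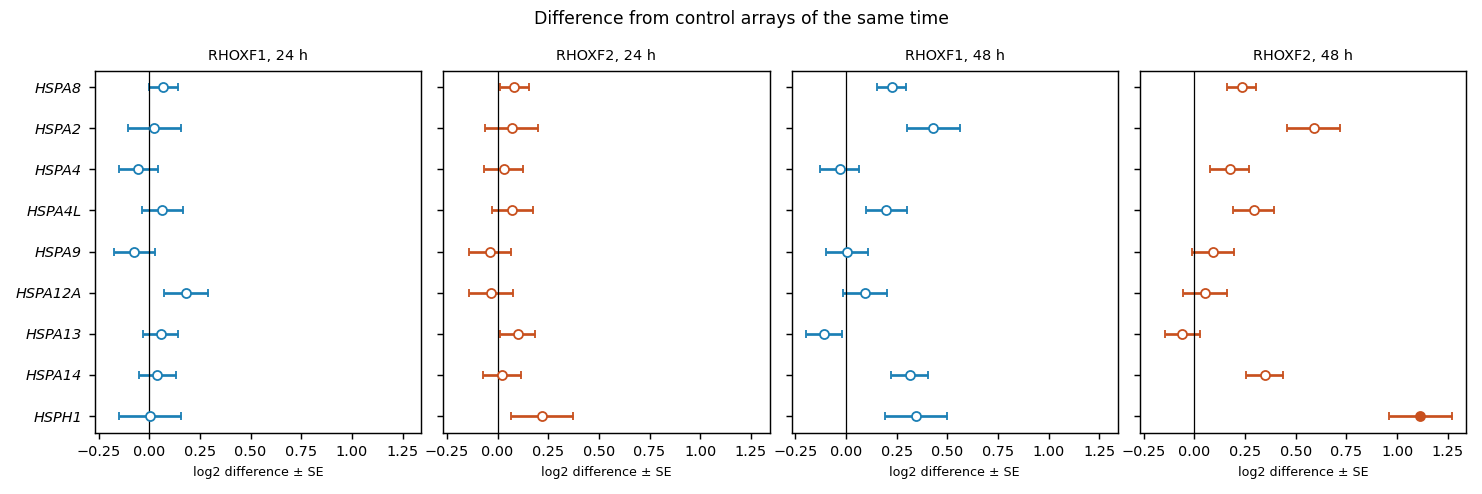
Difference from the control arrays of the same time (horizontal axis, log2 difference with its standard error) of each gene in the 4 comparisons; filled points passed the adjusted threshold of 0.05. HSPH1 with RHOXF2 at 48 h, at 1.12, is the only filled point, and at 24 h all points lie between -0.07 and 0.22.

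At 24 h no gene of the family differed from control past the threshold with either plasmid (limma, 0 of 9 in each, where 0.00471% of named clusters were called with RHOXF1 and 0.00943% with RHOXF2; 0 of 9 also had an unadjusted p under 0.05, where 4.76% and 7.99% did). With RHOXF1 the differences ran from -0.07 for HSPA9 to 0.18 for HSPA12A (adjusted p = 0.961), whose value came to 0.02 without RHOXF1 replicate 3. With RHOXF2 they ran from -0.04 for HSPA9 to 0.22 for HSPH1 (SE 0.15, limma adjusted p = 0.783, 95% interval -0.10 to 0.54). The HSPH1 difference was 0.07 without control replicate 1, the lowest control array. Replicate 1 was also the lowest RHOXF2 array, and by number each RHOXF2 array (10.55, 10.90 and 10.95) lay above its control array (10.28, 10.69 and 10.78). The fit did not pair arrays by number. At 24 h same-numbered arrays did vary together, with r over 0.1 in 8 of 9 pairs of deviations from the group means. The SE and interval therefore include any shift shared by arrays of 1 number. A replicate block changed no call of a member at 24 h. HSPA8, at 0.08 ± 0.07 (adjusted p = 0.836), was the only one of the 9 whose RHOXF2 arrays all lay above control, where 3.89% of named clusters did.

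The plasmids were also compared with each other, which leaves the control arrays out. The RHOX arrays of 48 h are part of the values that were in view when the family was chosen. Nothing is therefore read from the p-values and counts of that time. At 48 h HSPH1 was 0.77 higher with RHOXF2 than with RHOXF1 (SE 0.15, limma adjusted p = 0.135; 95% interval 0.45 to 1.09), with the 3 RHOXF2 arrays above the 3 RHOXF1 arrays. Its adjusted p varied from 0.0217 to 0.999 among the alternatives, and it passed with array weights (0.0217). Without RHOXF2 replicate 3 the adjusted p was 0.501 for a difference of 0.77. HSPA4 was 0.21 higher (adjusted p = 0.998), also without overlap, and 2 of 9 genes therefore lay apart upward, where 4.46% of named clusters did. limma called 0 of 9, where 0.0519% of named clusters were called in either direction, and 2 of 9 had an unadjusted p under 0.05, where 3.52% did. For HSPA8 the difference was 0.0065, with a 95% interval from -0.14 to 0.16. At 24 h the differences between the plasmids ran from -0.22 for HSPA12A to 0.21 for HSPH1, and 0 of 9 were called (limma, adjusted p = 1.00 for each; 0 of 9 with an unadjusted p under 0.05, where 1.7% of named clusters had one), where 0.0141% were.

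Whether the effect of a plasmid differed between the times was tested as the difference at 48 h minus that at 24 h. This contains the 48 h differences that were in view when the family was chosen, so nothing is read from its p-values and counts. For RHOXF2 this was 0.90 ± 0.22 SE in HSPH1 (limma adjusted p = 0.488), 0.52 ± 0.19 in HSPA2 (adjusted p = 0.557) and 0.33 ± 0.13 in HSPA14 (adjusted p = 0.557). None of the 9 passed after adjustment over all clusters, where 0.0141% did, and 3 of 9 had an unadjusted p under 0.05, where 8.75% did. Without RHOXF2 replicate 3 of 48 h the value of HSPH1 was 0.90 (adjusted p = 0.836). For RHOXF1 the largest was HSPA2 (0.41 ± 0.19, adjusted p = 0.950), again with 0 of 9 called by limma, where 0% of named clusters were, and 2 of 9 had an unadjusted p under 0.05, where 4.7% did. A change with time that passed in control cells and not in RHOXF2 cells does not by itself show that they differ. This contrast cannot decide it, because its 48 h values were in view when the family was chosen.

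The partners of these chaperones were described from lists of genes around them. The lists were chosen with earlier results of these data known, so nothing is read from their counts. In control cells between 24 h and 48 h, 7.89% of named clusters were called lower and 9.89% higher. In this comparison 3 of the 11 exchange factors and adaptors of HSC70 fell and none rose: BAG2, a co-chaperone that inhibits the ubiquitin ligase CHIP, by 0.49 (limma adjusted p = 0.00213), STIP1, the adaptor between HSP70 and HSP90, by 0.48 (adjusted p = 0.00522), and the exchange factor BAG1 by 0.27 (adjusted p = 0.0393). Of 12 J-domain partners only DNAJA1 fell, by 0.66 (adjusted p = 0.00572), and none rose. Of 10 partners of mortalin 2 fell, the import motor gene DNAJC19 by 0.27 (adjusted p = 0.0495) and the cluster shared by DNLZ and CARD9 by 0.34 (adjusted p = 0.0301). In the endoplasmic reticulum the HSP110 relative HYOU1 fell by 0.44 (adjusted p = 0.0122), while HSPA5, the HSP70 of that compartment, and the exchange factor SIL1 did not pass. Of 4 clusters of inducible HSP70 genes 2 fell, the one shared by HSPA1A and HSPA1B by 0.38 (adjusted p = 0.00918) and a cluster naming both HSPA6 and HSPA7 by 0.74 (adjusted p = 0.0405). Of the ribosome-associated partners (3 measured) and the heat shock factors (3 measured of 4) none was called in either direction.

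In RHOXF2-transfected cells at 48 h, 0.0848% of named clusters were called higher. This comparison was in view when the family was chosen, so the counts and p-values of the lists are a description only. Of 4 clusters of inducible HSP70 genes 3 were called higher, with a list median of 1.18 beside 0.23 for the 9 members. They ran from 0.68 for the cluster of HSPA1A and HSPA1B to 1.98 for HSPA6. The other called cluster, at 1.67, names both HSPA7 and HSPA6, so HSPA6 enters the count and the median through 2 clusters. Of 12 J-domain partners 10 read higher, where 53.9% of named clusters did, and 1 was called, DNAJB1 (1.57 ± 0.22 SE), and of 11 exchange factors and adaptors all read higher and 1 was called, the exchange factor BAG3 (0.57 ± 0.11). The medians of these 2 lists were 0.10 and 0.14, and that of the mortalin partners was 0.11 with 0 of 10 called. ISCU, a scaffold of iron-sulfur cluster assembly, was the mortalin partner with the smallest p, at 0.22 ± 0.10. All 3 ribosome-associated partners read lower, by up to -0.16 for NACA, and none was called. Neither was any of HSPA5, SIL1 and HYOU1 (0.33 ± 0.11) or of the heat shock factors, of which HSF4 had the smallest p (-0.28 ± 0.10). DNAJB1 also read higher with RHOXF1 at 48 h (1.12 ± 0.22 SE) and 24 h (0.64), and with RHOXF2 at 24 h (0.69), without passing. With RHOXF1 at 48 h the medians were 0.07 for the J-domain partners and 0.12 for the exchange factors and adaptors, with none called.

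**Figure D5:**
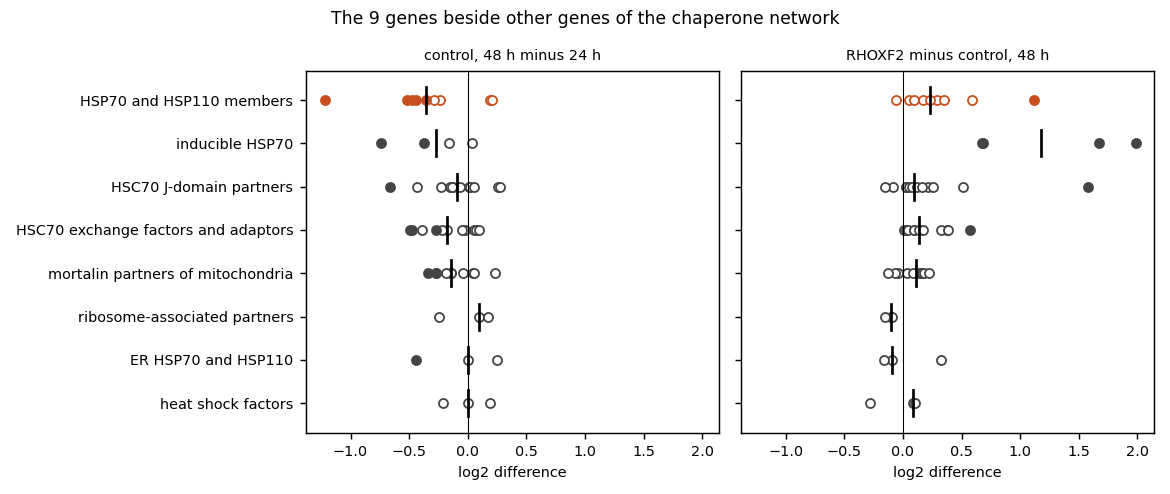
Log2 differences (horizontal axis) of the 9 genes and of 7 lists of partner genes, with 1 point per gene or shared cluster and a bar at the list median, in control cells between the times (left) and in RHOXF2 against control cells at 48 h (right); filled points passed the adjusted threshold of 0.05. The medians of the 9 genes lie at -0.35 on the left and 0.23 on the right, and that of the inducible HSP70 genes at 1.18 on the right.

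By the RefSeq annotation, small nucleolar RNAs lie inside 2 of the genes, SNORD14C, SNORD14D and SNORD14E in HSPA8 and SNORD63 and SNORD63B in HSPA9. Clusters named for 3 of them were measured. In control cells SNORD14E read 6.75, 7.89 and 7.68 at 24 h and 7.56, 7.63 and 7.53 at 48 h, and SNORD14C 9.65, 10.60 and 10.26 and then 11.01, 10.10 and 9.78. Where the HSPA8 cluster fell by 0.35 between these groups, SNORD14E differed by 0.13 ± 0.30 SE (limma adjusted p = 0.781) and SNORD14C by 0.13 ± 0.41 (adjusted p = 0.854). SNORD63 read 0.53 ± 0.28 higher at 48 h (adjusted p = 0.199), with HSPA9 at -0.28. In the 4 comparisons with control the adjusted p of these RNAs ran from 0.655 to 0.998. The SD of replicate arrays reached 1.11, for SNORD14C with RHOXF2 at 48 h, and was as low as 0.05 for SNORD14E in control cells at 48 h.

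Over the 18 arrays, HSPH1 went most closely with HSPA4 (Pearson r = 0.88), HSPA8 (0.87) and HSPA14 (0.83) among the members, and in the opposite direction to HSPA13 (-0.43) and HSPA12A (-0.39). These correlations share the arrays and pool both times. Outside the family, of 9766 other clusters with 1 symbol and a mean level above the median, the 5 most like HSPH1 were PUS7 (0.91), LTV1 (0.91), SNRPB2 (0.91), SURF4 (0.91) and NEK4 (0.91). PUS7 is a pseudouridine synthase, LTV1 a factor of small ribosomal subunit assembly and SNRPB2 a spliceosome protein. Their group means spanned 0.30 for SURF4 to 1.01 for LTV1, against 1.44 for HSPH1. The 5 most like HSPA8 were the splicing factor gene SRSF3 (0.94), TM9SF2 (0.94), RSU1 (0.93) and the proteasome genes PSMG1 (0.93) and PSMA4 (0.93).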

How the data were processed

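The deposited values are log2 RMA expression values, per the labels made by the authors with Affymetrix Expression Console 3.1. The genome build is not given in the sources used here. The labels of the arrays name the Human Gene 1.0 ST array and the series text an exon array. Symbols came from the platform's probe table. Of 33297 rows, 19460 have 1 symbol, 1754 several and 12083 none.

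A linear model with moderated variances (limma 3.58.1, R 4.3.3) was fitted to all 21214 named clusters, with 1 mean per group over 18 arrays, 12 residual degrees of freedom and no filter. Tests were two-sided, with Benjamini-Hochberg adjustment at 0.05 within each of 11 comparisons. SEs and 95% intervals are limma's, and SD is that of 3 arrays. The fit was tested on simulated data. The number of arrays limits the precision. The series text calls the arrays biological triplicates and says no more on how separate the cultures were.

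All 9 members were named. For partner lists, the genes called and, with RHOXF2 at 48 h, the smallest p were named. A gene with several clusters was read from the brightest with 1 symbol or, where none had 1 symbol, from the brightest shared cluster. Its other clusters were not read. The 5 most alike clusters for HSPH1 and HSPA8 were taken by Pearson correlation. The members and lists were chosen with earlier results of these data known. Promoter sequences are from RefSeq, GRCh38.p14. Alternatives were 2 further normalizations, a filter on dim clusters, all rows, another variance model, array weights, only the groups compared, a replicate block and leaving out each array.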

Additional observations from a re-analysis of the deposited data

Results flagged for a closer look

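HSPA13, the divergent microsomal member, was picked out because its RHOXF2 arrays moved opposite ways against control at the 2 times in every array. At 24 h they read 9.75, 9.66 and 9.70, above the control mean of 9.60, and at 48 h 9.78, 9.79 and 9.70, below the control mean of 9.81. The effect at 48 h minus that at 24 h was -0.16 ± 0.12 SE, and limma's test of this difference did not pass (adjusted p = 0.700). The control arrays of 48 h were 9.64, 9.80 and 10.00, so their range covers all the RHOXF2 arrays.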

How the results depend on the processing

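Of 166 recomputed counts of called members, 157 were within 1.5 times the main count, 5 were lower and 4 higher by more, and of 601 recomputed differences 568 kept their direction and side of the threshold. The count with RHOXF2 against control at 48 h was 0 with only the groups compared and 1 to 2 when an array was left out. Against RHOXF1 at 48 h it was 1 with array weights and 1 with the replicate block, in both cases HSPH1 (adjusted p = 0.0217 and 0.0404). With array weights it was 1 for RHOXF2 cells between the times (HSPA4, adjusted p = 0.0406). In RHOXF1 cells between the times it ran from 0 to 2, and in control cells from 4 to 6, when an array was left out. The causes were not tested. Differences near 0 changed sign. HSPA9 with RHOXF1 at 48 h read -0.017 after repeated quantile normalization, -0.0071 after cyclic loess and -0.064 to 0.11 with an array left out. HSPA2 in RHOXF2 cells between the times read 0.015 after repeated quantile normalization and -0.094 to 0.061 with an array left out. With an array left out, HSPA4 with RHOXF1 at 48 h ran from -0.094 to 0.025 and HSPA13 with RHOXF2 at 48 h from -0.15 to 0.032. With the filter on dim clusters HSPA2 was not tested. Replicate numbers were not taken as pairs: among deviations from the group means, same-numbered pairs had r over 0.1 in 8 of 9 cases at 24 h but in 2 of 9 at 48 h, and 8 of 9 and 2 of 9 arrays correlated best with their own number. Apart from that of HSPH1 against RHOXF1 at 48 h, the replicate block changed no call of a member. No probe-level signal or background value was analysed here, so how far HSPA2 stands above background is unknown.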
